A study of Mus musculus with 4 samples.

Results

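Microglia, the resident macrophages of the brain, and the related macrophages at its borders were followed here through 34 genes that mark them. A gene counted as measured through any probe whose RefSeq accession in the array files belongs to it. All 34 genes were on the array, with 43 probes of 56605 non-control probes, and 33 of them had at least 1 probe that entered the test, out of 16524 named genes tested. The samples were RNA from dissected cerebellum of C57BL/6 mice at postnatal day 28, hybridised to one-colour Agilent arrays. The control group (n = 2) was Derl2 flox/flox. The KO group (n = 2) came from the cross of Derl2 flox/flox mice with mice carrying Cre recombinase under the nestin promoter, so Cre and the deletion cannot be told apart. Derlin-2, the product of Derl2, sits in the membrane of the endoplasmic reticulum and helps to remove misfolded proteins. The labels do not say whether an array holds 1 mouse or a pool, so p-values measure the spread between these samples only.

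Microglia arise from yolk sac progenitors, whereas the nestin promoter is active in neural precursors, which give rise to neurons, astrocytes and oligodendrocytes. Microglia depend on CSF1 receptor signalling and on the transcription factors PU.1, IRF8 and SALL1. In healthy tissue they express a set of surface receptors with which they survey neurons, here called homeostatic genes; they also make the C1q complement protein, which tags synapses and debris, and they engulf tagged material through phagocytic receptors that signal through adaptors with immune tyrosine motifs. In whole tissue, fewer cells of a type and less RNA per cell cannot be told apart.

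Signal is given as log2 of the scanner's background-subtracted signal minus the 75th percentile of its array, so 0 is a fairly bright probe and a step of 1 is a doubling. Between 66.4% and 69.4% of the non-control spots were well above background on each array, 0 spots were saturated, and repeated spots of the same probe varied by a median of 2.84% to 4.19%. Each member probe had 1 spot. Derl2 itself, the check of the labels, stood at 37.6% and 30.2% of the control signal on its 2 probes. All 8 granule cell and all 8 Purkinje cell markers, which define the labelled tissue, were bright enough to be tested. The choroid plexus markers, from tissue next to the cerebellum, had a summed linear signal of 33.5 on control 1 and 246 on control 2, against 24.7 and 26.7 on KO 1 and KO 2, and the red blood cell genes summed to 424 on control 1, 629 on control 2, and 424 and 425 on KO 1 and KO 2. Control 2 thus stands apart in both, and the part of this in the members' results was not tested. The median of control 2 minus control 1 was −0.07 over the members and 0.01 over all named genes. By role of the members it was −0.18 for homeostatic, −0.20 for complement, −0.03 for phagocytic and 0.02 for general myeloid genes. All arrays shared 1 slide with the groups side by side, so position and group cannot be told apart.

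Over the 33 member genes, each by its brightest tested probe, the signal was lower in KO for 30 genes and higher for 3 (Olfml3, Mrc1 and Csf3r). That is 90.9% below 0, against 63.9% of all named genes. The median log2 difference was −0.16, with single genes from −0.31 to 0.26, and the median over all named genes was −0.06. With limma and Benjamini-Hochberg adjustment over all 37516 probes, 0 members passed an adjusted p of 0.05, as did 0% of all probes; the smallest adjusted p among these brightest probes was 0.334. An unadjusted p under 0.05 was found for 2 members (6.06%), P2ry12 and Irf8, both lower, against 8.81% of named genes in either direction and 5.65% lower. The KO arrays were both below both controls for 12 members (36.4%), where 32.1% of all named genes did the same, so this count was near the background. Both were above both controls for 2 members, Olfml3 and Csf3r, a share of 6.06% against 13.8%. An exact two-sided permutation test of 2 against 2 arrays cannot give a p below 0.333.

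The KO arrays were not alike. Against the mean of the controls, the median over the members was −0.25 on KO 1 and −0.07 on KO 2, where the median over all named genes was −0.06 on both. KO 1 had the lowest signal of the 4 arrays for 23 of the 33 members (69.7%, against 32.8% of named genes), and KO 2 was above KO 1 for 26 (78.8%, against 49.5%). KO 1 lay below the control mean for 28 members (84.8%, against 62.0%) and below both controls for 26 (78.8%, against 49.3%). KO 2 lay below the control mean for 20 (60.6%, against 61.5%) and below both controls for 14 (42.4%, against 49.3%), both near the background. Without KO 1 the count of members below 0 was therefore 20 in place of 30, and without KO 2 it was 28; without control 2 it was 27. Markers of mature oligodendrocytes differed between the KO arrays in the same order, with a median of −0.44 on KO 1 and −0.19 on KO 2, while granule cell markers stood at −0.10 and −0.03; whether these shifts are linked was not tested.

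**Figure D1:**
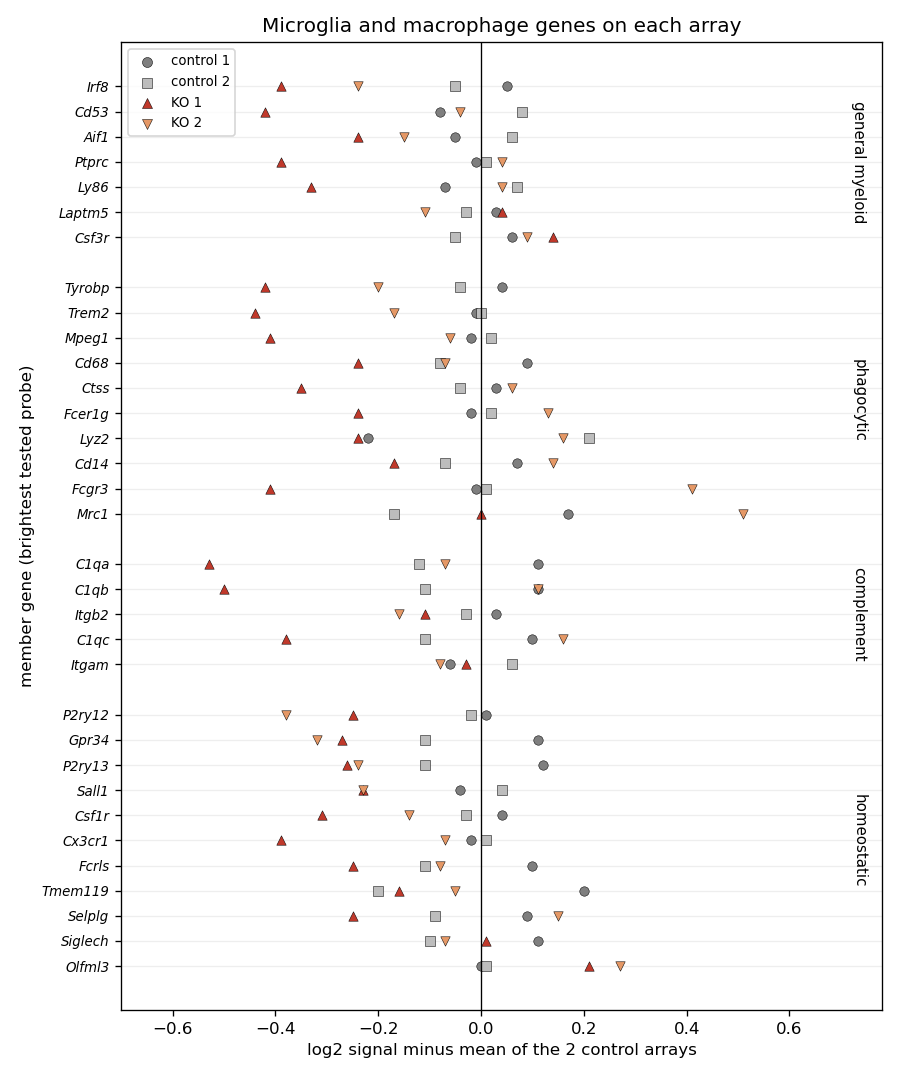
Log2 signal of each of the 33 tested member genes on each array, as the difference from the mean of the 2 control arrays, grouped by role; grey symbols are control arrays and coloured triangles KO arrays. KO 1 lies furthest left for most genes (23 of 33), while KO 2 lies left of both controls for 14, 6 of them in the homeostatic group.

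Of the 12 members with both KO arrays below both controls, 6 were homeostatic genes. They were 54.5% of the 11 homeostatic genes tested, against 32.1% of all named genes. Below 0 were 10 of the 11 (90.9%, against 63.9%), with a median difference of −0.22. The homeostatic median was −0.24 on KO 1 and −0.08 on KO 2, where all named genes had −0.06 on both. KO 2 lay below both controls for 6 of the 11 (54.5%, against 49.3%), so by this count the group was near the background on KO 2. Below the control mean, KO 2 lay for 9 of the 11 (81.8%, against 61.5%), and KO 1 also for 9 (81.8%, against 62.0%). P2ry12, a purinergic receptor with which microglial processes sense ADP and ATP, had a signal of −1.36 and −1.39 in the controls and −1.62 and −1.75 in KO. The groups did not overlap, and KO stood at 80.4% of control, a log2 difference of −0.31 (SE 0.11; unadjusted p 0.0369, limma adjusted p 0.334). P2ry13, the gene of a related ADP receptor, read −2.26 and −2.49 in the controls and −2.64 and −2.62 in KO, a difference of −0.25 (SE 0.12). Gpr34, a lysophosphatidylserine receptor, was at −2.10 and −2.32 in the controls and −2.48 and −2.53 in KO, a difference of −0.30 (SE 0.12; limma adjusted p 0.384). In these 3 receptor genes both KO arrays lay below both controls.

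P2ry12 and P2ry13 lie near each other on mouse chromosome 3. Their promoter windows from RefSeq (build GRCm38.p6), from 250 bases before to 50 after the annotated gene start, are shown because they belong to the members that were low on both KO arrays; both windows are on the minus strand, P2ry12 at chr3:59262936-59263235 and P2ry13 at chr3:59210833-59211132. Capitals mark AGGAAG, the core recognised by ETS family factors such as PU.1, searched on both strands, where the opposite strand reads CTTCCT.
P2ry12: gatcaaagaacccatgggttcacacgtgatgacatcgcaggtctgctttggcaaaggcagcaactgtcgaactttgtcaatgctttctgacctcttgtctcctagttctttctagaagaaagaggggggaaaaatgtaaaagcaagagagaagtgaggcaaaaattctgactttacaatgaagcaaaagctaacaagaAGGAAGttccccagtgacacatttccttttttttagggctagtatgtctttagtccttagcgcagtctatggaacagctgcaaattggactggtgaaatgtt
P2ry13: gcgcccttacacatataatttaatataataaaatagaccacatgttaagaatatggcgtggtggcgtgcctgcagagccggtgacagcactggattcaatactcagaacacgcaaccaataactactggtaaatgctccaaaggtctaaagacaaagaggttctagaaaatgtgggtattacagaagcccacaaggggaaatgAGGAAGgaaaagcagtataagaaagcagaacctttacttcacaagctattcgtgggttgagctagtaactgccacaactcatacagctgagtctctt
Each window held 1 match, on the gene's own strand, at position −52 for P2ry12 and −47 for P2ry13 relative to the gene start, which is position 0. A window was at hand for 25 of the 34 members. The core was in 21 of their 30 windows (70.0%), against 35.4% of 32851 windows of the same length. Some windows of the same gene overlap, as for Fcgr3 and Ptprc. Counted by gene, 19 of the 25 held the core in a window, against 38.4% of 27025 genes. The longer PU.1 sequence GAGGAAGT, which contains the core, was in 3 of the 30 windows, against 3.2% of all windows. A match describes the letters and is not a binding site.

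Sall1, the transcription factor that keeps microglial identity, read −2.45 and −2.37 in the controls and −2.64 on both KO arrays, a difference of −0.24 (SE 0.10; limma adjusted p 0.391). The groups did not overlap. Csf1r, the receptor that microglia need to survive, read 3.35 and 3.28 in the controls and 3.0 and 3.17 in KO, a difference of −0.23 (SE 0.12). Cx3cr1, the receptor for the neuronal chemokine fractalkine, read 1.93 and 1.96 in the controls and 1.56 and 1.88 in KO, a difference of −0.22 (SE 0.14). Here the groups did not overlap either, but KO 2 was nearer to the controls than to KO 1.

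The remaining homeostatic genes were mixed. Tmem119, a surface protein used as a marker of microglia, overlapped, with controls at −0.92 and −1.32 and KO at −1.28 and −1.17. Fcrls and Selplg, an Fc receptor-like protein and the ligand of P-selectin, also overlapped, with differences of −0.16 (SE 0.13) and −0.05 (SE 0.18), and for both KO 1 was the lowest array. Siglech, a sialic acid receptor, differed by −0.03 (SE 0.12), and this sign turned to 0.05 under quantile normalization and under scaling to spike-in probes. The Siglech probe, the brighter Itgam probe and the Csf3r probe are bright for genes of a sparse cell type, and whether they also capture other transcripts was not tested. Olfml3, which encodes a secreted matrix protein, went the other way: 3.80 and 3.81 in the controls and 4.01 and 4.07 in KO, a difference of 0.24 (SE 0.10; limma adjusted p 0.389). Both KO arrays lay above both controls, as they did for 13.8% of all named genes.

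The complement genes split into the C1q chains and the receptor that binds complement-tagged material. C1qa, C1qb and C1qc encode the 3 chains of C1q, the start of the classical cascade. C1qa read 0.15 and −0.08 in the controls and −0.49 and −0.03 in KO, a difference of −0.30 (SE 0.20; limma adjusted p 0.532). C1qb read −0.37 and −0.59 in the controls and −0.98 and −0.37 in KO, a difference of −0.19 (SE 0.24; limma adjusted p 0.729). C1qc read 0.99 and 0.78 in the controls and 0.51 and 1.05 in KO, a difference of −0.11 (SE 0.22; limma adjusted p 0.835). All 3 were lowest on KO 1, which lay 0.38 to 0.53 below the control mean by log2, while KO 2 lay within the range of the controls for C1qa, level with the higher control for C1qb and above both for C1qc. Without KO 1 the differences of C1qb and C1qc were 0.11 and 0.16, so their direction rests on that array; C1qa was then −0.07.

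The C1q genes lie together on chromosome 4. The windows of C1qb, at chr4:136886151-136886450, and C1qc, at chr4:136892865-136893164, both on the minus strand and marked as before, are shown because these genes followed KO 1 alone, unlike P2ry12 and P2ry13.
C1qb: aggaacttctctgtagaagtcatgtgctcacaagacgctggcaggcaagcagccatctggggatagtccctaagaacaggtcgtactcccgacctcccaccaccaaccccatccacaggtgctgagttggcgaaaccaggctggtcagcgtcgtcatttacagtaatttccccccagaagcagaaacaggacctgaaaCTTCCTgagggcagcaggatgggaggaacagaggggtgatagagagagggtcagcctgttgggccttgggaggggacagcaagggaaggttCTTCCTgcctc
C1qc: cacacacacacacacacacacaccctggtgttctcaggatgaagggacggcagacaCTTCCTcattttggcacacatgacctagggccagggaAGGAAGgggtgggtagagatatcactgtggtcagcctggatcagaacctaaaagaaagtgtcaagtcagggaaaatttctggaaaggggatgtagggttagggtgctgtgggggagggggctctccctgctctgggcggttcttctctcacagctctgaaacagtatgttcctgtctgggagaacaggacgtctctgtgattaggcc
C1qb held 2 matches, both on the opposite strand, at −52 and 39. C1qc also held 2, on the gene's strand at −157 and on the opposite strand at −194, the latter inside a GAGGAAGT sequence read on that strand. The core was thus present in the windows shown for both patterns. Among all members with both KO arrays below both controls, windows of P2ry12, P2ry13 and Trem2 and 1 of the Sall1 windows held it. Those of Cx3cr1, Aif1, Mpeg1 and Irf8 did not, and for Csf1r, Gpr34, Itgb2 and Tyrobp no window was at hand. No link between the core and the patterns was tested.

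Itgam and Itgb2 encode CD11b and CD18, which together form complement receptor 3. Itgb2 read −3.22 and −3.28 in the controls and −3.36 and −3.41 in KO, with no overlap and a difference of −0.14 (SE 0.10; limma adjusted p 0.556). The 2 probes of Itgam behaved differently. The brighter, with the same limit as Siglech, read 5.93 and 6.05 in the controls and 5.96 and 5.91 in KO, a difference of −0.06 (SE 0.11) that became 0.03 under quantile normalization and under spike-in scaling. The dimmer read −4.97 and −5.71 in the controls and −6.02 and −5.65 in KO; it was well above background on both control arrays and not on the KO arrays, and control 2 lay below KO 2, so no fold is given for it.

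**Figure D2:**
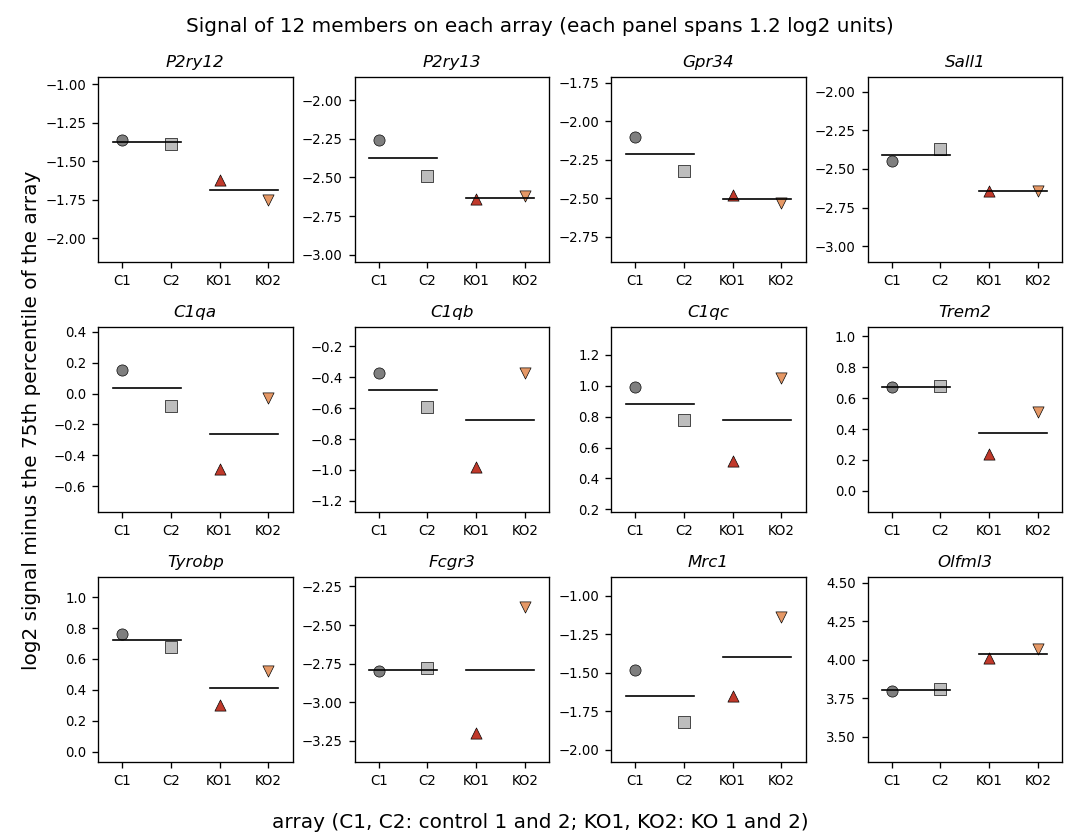
Log2 signal (minus the 75th percentile of each array) for 12 members on each of the 4 arrays, each panel spanning the same range of 1.2 log2 units; horizontal lines are group means. P2ry12, P2ry13, Gpr34 and Sall1 have both KO arrays below both controls, the C1q genes and Fcgr3 are low on KO 1 and at or above the controls on KO 2 (C1qa within their range), and Olfml3 is higher on both KO arrays.

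Of the 10 phagocytic members, 9 were below 0, with a median difference of −0.10, but the median was −0.30 on KO 1 and 0.10 on KO 2. KO 1 was the lowest array for 9 of them, and KO 2 was above KO 1 for all 10. Tyrobp, the adaptor DAP12, read 0.76 and 0.68 in the controls and 0.30 and 0.52 in KO, a difference of −0.31 (SE 0.13; limma adjusted p 0.378). Trem2, the lipid receptor that signals through this adaptor, read 0.67 and 0.68 in the controls and 0.24 and 0.51 in KO, a difference of −0.30 (SE 0.13; limma adjusted p 0.400). Mpeg1, a pore-forming protein of phagosomes, read −0.23 and −0.19 in the controls and −0.62 and −0.27 in KO, a difference of −0.24 (SE 0.15; limma adjusted p 0.520). These were the 3 phagocytic genes with both KO arrays below both controls (30%, against 32.1% of all named genes), and in each KO 2 lay between KO 1 and the controls.

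Of all members, Fcgr3, a receptor for antibody-coated material, had the widest gap between the KO arrays. It read −2.80 and −2.78 in the controls, −3.20 on KO 1 and −2.38 on KO 2, so the KO arrays lay 0.82 apart on either side of the controls, and the difference of the means was −0.01 (SE 0.29). Fcer1g, a signalling chain of Fc receptors, read 0.13 and 0.17 in the controls and −0.09 and 0.28 in KO. Of the lysosomal genes, Ctss, the protease cathepsin S, was at 2.85 and 2.78 in the controls and 2.47 and 2.88 in KO, and the brighter probe of Cd68 was at −0.13 and −0.30 in the controls and −0.46 and −0.29 in KO. Cd14, a co-receptor for bacterial lipopolysaccharide, and Lyz2, lysozyme, differed by −0.02 (SE 0.15) and −0.04 (SE 0.22), both with overlap. Mrc1, the mannose receptor of border macrophages, had the largest positive difference, 0.26 (SE 0.23; limma adjusted p 0.633), but this came from KO 2 alone: −1.48 and −1.82 in the controls, −1.65 on KO 1 and −1.14 on KO 2. Without KO 2 the Mrc1 difference was 0.00.

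The general myeloid members had 6 of 7 below 0 and a median of −0.18, with −0.33 on KO 1 and −0.04 on KO 2. Irf8, a transcription factor of the myeloid lineage, read −1.46 and −1.56 in the controls and −1.90 and −1.75 in KO, a difference of −0.31 (SE 0.11; unadjusted p 0.0476, limma adjusted p 0.353). Aif1, which encodes the microglial stain IBA1, read −0.64 and −0.53 in the controls and −0.83 and −0.74 in KO, a difference of −0.20 (SE 0.11; limma adjusted p 0.471). For both genes the groups did not overlap. Cd53, a tetraspanin of leukocytes, read −4.82 and −4.66 in the controls and −5.16 and −4.78 in KO, a difference of −0.23 (SE 0.17; limma adjusted p 0.570) with overlap. Ptprc, which encodes the leukocyte phosphatase CD45, and Ly86, which encodes the secreted protein MD-1, had KO 1 lowest and KO 2 level with the controls, with differences of −0.18 (SE 0.18) and −0.15 (SE 0.17), and Laptm5, a lysosomal membrane protein of blood-derived cells, differed by −0.03 (SE 0.11). Csf3r, the receptor for granulocyte colony-stimulating factor, read 6.31 and 6.20 in the controls and 6.39 and 6.34 in KO, a difference of 0.11 (SE 0.10) with both KO arrays above both controls, as for 13.8% of all named genes; the limit given with Siglech holds for this probe too. Spi1, the gene for PU.1, was not well above background on any array and is the 1 member without a test.

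A second probe was on the array for 9 members, which gives a separate reading of the same RNA, though not an independent sample. Leaving out Itgam, whose dimmer probe was above background in the controls alone, both probes could be tested for 6 genes, and their differences had the same sign for 5. In those 5 the dimmer probe gave the more negative difference: −0.45 (SE 0.12) against −0.30 for Gpr34, −0.36 (SE 0.13) against −0.22 for Cx3cr1, −0.33 (SE 0.12) against −0.16 for Cd68, −0.28 (SE 0.11) against −0.23 for Csf1r, and −0.09 (SE 0.18) against −0.02 for Cd14. These gaps between probes were not tested. The dimmer Gpr34 probe had the smallest unadjusted p of any member probe, 0.0158 (limma adjusted p 0.287), with −4.23 and −4.30 in the controls and −4.62 and −4.80 in KO. The Siglech probes differed in sign, at −0.03 and 0.20 (SE 0.21), but the dimmer was not well above background on control 1 (−5.71). It entered the test through the KO arrays only, so no weight is given to its sign. The second probes of Mpeg1 and Ptprc were well above background on 1 and 0 arrays and were not tested.

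**Figure D3:**
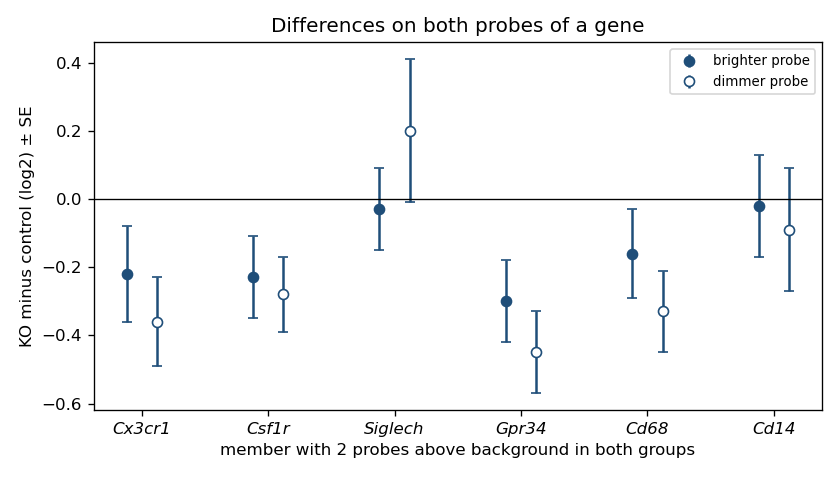
Log2 difference of KO and control with its standard error for 6 members with both probes tested, filled for the brighter and open for the dimmer probe. Each probe was above background on at least 1 array of each group. The dimmer Siglech probe was not above background on control 1. The open symbol lies below the filled one for every gene shown except Siglech, where it lies above.

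The signals that members receive, and other genes of the same pathways, were read from lists of known members. None of their genes passed the adjusted threshold in limma. An unadjusted p under 0.05 was found for 1 of 13 ligands and survival signals, 1 of 18 other homeostatic genes, 2 of 13 other complement genes, 6 of 21 disease-associated genes, 1 of 11 inflammatory genes and 0 of 11 border macrophage genes, all of these lower in KO. Of all named genes, 5.65% were lower by this rule, against 28.6% of the disease-associated list and 5.56% of the other homeostatic genes. The ligand list had 10 of 13 genes below 0, with a median of −0.13. Among the ligands of member receptors, named outside the rule, Csf1 and Il34, which both activate the CSF1 receptor, differed by −0.15 (SE 0.15) and −0.13 (SE 0.22), and Cx3cl1, the ligand of CX3CR1, by 0.29 (SE 0.46), with overlapping groups in each. Within the ligand list the smallest unadjusted p belonged to Gas6, a bridging molecule for engulfment, with −0.28 (SE 0.10), and to Cd24a, with −0.83 (SE 0.31).

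Other homeostatic microglial genes also read lower on KO 1 than on KO 2. Their median was −0.29 on KO 1 and 0.02 on KO 2 over 18 genes, 13 of them below 0 by the mean difference. Some of them, such as Sparc and Cst3 (7.56 and 5.99 on control 1), are bright for genes of a sparse cell type. Whether their signal came from microglia was not tested. Rgs10, a regulator of G protein signalling, read 2.62 and 2.64 in the controls and 2.27 and 2.31 in KO, a difference of −0.33 (SE 0.10; limma adjusted p 0.307). Of 13 other complement genes, 6 were below 0, with medians of −0.34 on KO 1 and 0.15 on KO 2. Cd59a, an inhibitor of the membrane attack complex, was at 1.33 and 1.37 in the controls and 0.67 and 0.60 in KO, a difference of −0.71 (SE 0.10; unadjusted p 0.0015, limma adjusted p 0.273), and Clu, clusterin, differed by −0.32 (SE 0.11). Both groups of Cd59a lay well apart, unlike those of the C1q chains.

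Genes that microglia raise around damage, the disease-associated list, were mostly lower in KO by value. Of 21 tested, 20 were below 0, 14 (66.7%, against 32.1%) had both KO arrays below both controls, and the median was −0.29 on KO 1 and −0.20 on KO 2. Lpl, lipoprotein lipase, had −2.71 and −2.67 in the controls and −3.65 and −3.17 in KO, a difference of −0.72 (SE 0.19; limma adjusted p 0.290), and Cd9, a tetraspanin, differed by −0.33 (SE 0.10). The list shares Apoe, Ctsd, Ctsb, Cd9 and others with astrocytes, oligodendrocytes and neurons, and its members Cst7, Itgax and Clec7a, which are more specific to activated microglia, had no tested probe. Of 15 inflammatory genes, Il1b, Il1a, Il6 and Cybb had no tested probe; among the 11 tested, 9 were below 0, led by Tlr7, an RNA sensor, with −0.64 (SE 0.15; limma adjusted p 0.274), and Tnf with −0.31 (SE 0.13).

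Markers of macrophages and granulocytes outside the parenchyma were read in the same way. KO 2 was the highest array for 9 of 11 border macrophage genes, Mrc1 among them (81.8%, against 20.5% of named genes), and their median was −0.12 on KO 1 and 0.26 on KO 2. Lyve1, a hyaluronan receptor, read −4.25 and −4.72 in the controls and −4.22 and −3.58 in KO, a difference of 0.59 (SE 0.29), and Ms4a7 read −2.51 and −2.56 in the controls and −3.04 and −2.56 in KO, a difference of −0.26 (SE 0.19). The list of monocytes and neutrophils, which also holds the members Csf3r and Lyz2, had 10 tested genes. Of these, 9 were above 0 and 1 below, where 63.9% of all named genes were below 0. The 9 include Csf3r, whose probe has the limit given with Siglech. Several others, named outside the rule, were small against their error. Ly6c2, Camp and Elane differed by 0.04 (SE 0.23), 0.13 (SE 0.12) and 0.12 (SE 0.11). Mmp9 and Plac8 differed by 0.11 (SE 0.40) and 0.60 (SE 0.62). An unadjusted limma p under 0.05 was found for 3, S100a8, S100a9 and Ngp, all higher in KO (30%, against 3.16% of all named genes). This share is not a count of 3 separate readings above background. S100a8 and S100a9 are partners and rose in the same array order, and Ngp entered the test through the KO arrays only. S100a8, a subunit of the neutrophil protein calprotectin, read −4.61 and −3.00 in the controls and −2.27 and −1.16 in KO, a difference of 2.09 (SE 0.67; unadjusted p 0.0315, limma adjusted p 0.327). Its partner S100a9, named outside the rule, read −2.60 and −0.78 in the controls and −0.05 and 1.30 in KO. Ngp, a granule protein, read −6.36 and −6.21 in the controls and −5.60 and −5.70 in KO. Both control values lay below the lowest signal well above background on their arrays (−5.69 and −6.10), so no fold is given for it. The arrays of each group were far apart for the S100 genes. Red blood cell genes were highest on control 2, and a link between these patterns was not tested. Among 5 tested lymphocyte genes 4 were below 0; Cd4, which macrophages and other cells can also express, had −0.36 (SE 0.10).

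**Figure D4:**
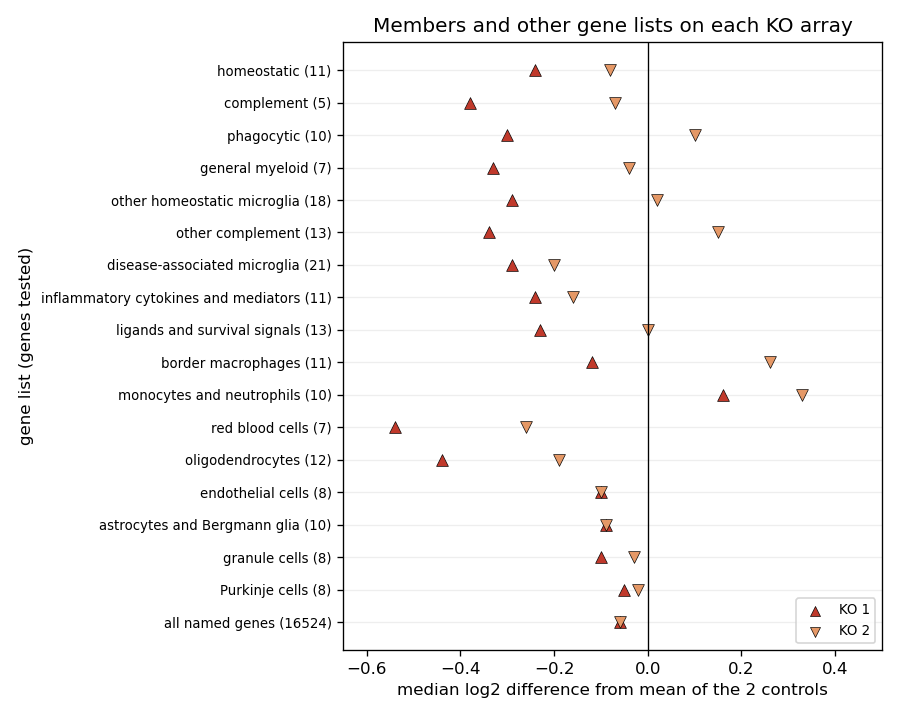
Median log2 difference from the mean of the 2 controls, on KO 1 and on KO 2, for the 4 role groups of the members, other lists of pathway and cell type genes, and all named genes; the number of genes tested is in brackets. All 4 role groups lie between −0.38 and −0.24 on KO 1 and between −0.08 and 0.10 on KO 2. On KO 2 border macrophage genes lie at 0.26 and monocyte and neutrophil genes at 0.33.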

How the data were processed

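RNA from cerebellum (150 ng per sample) was labelled with Cy3, per the labels' protocols. The deposited scanner files hold a processed signal, an intensity on a linear scale that the software had background-subtracted and detrended within the array, without normalization between arrays; the software was version 12.1.1.1 of Agilent Feature Extraction according to those files (per the file headers), while the submitters' processing notes name 10.7.1.1. Flags for other spot properties (control, outlier, above background, saturated) are deposited beside it. The authors' deposited table holds log2 values centred per probe on an unstated value; its columns have medians between −0.222 and 0.007, and its differences between arrays matched the scanner values.

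Control spots and outlier spots (65 to 176 per array) were left out, repeated spots were averaged by probe on the log2 scale, and the array's 75th percentile was subtracted. The fit took the 37516 probes that both controls, or both KO arrays, showed well above background, and was made with limma 3.58.1 in R 4.3.3, without covariates, with Benjamini-Hochberg adjustment over all of them; the fit was tested on simulated data. Names came from RefSeq accessions of GRCm38.p6, which matched 32994 of 35886 probes with one. A gene was represented by its brightest tested probe. None of the 43 member spots had an outlier flag or lay on a patch of raised local background. The number of arrays limits the precision.

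The members, lists and tests were chosen with earlier results of these data known. Named in full were the 3 members per role with the smallest p, all complement members, members whose probes disagreed in sign or were above background in 1 group, and the largest difference in each direction, as well as up to 2 genes per other list; further members are given for completeness, and no red blood cell, choroid plexus or other neural gene is named, as those lists served as checks. Some genes that the rule would name are not reported here.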

Additional observations from a re-analysis of the deposited data

How the results depend on the processing

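No member passed the adjusted threshold of limma under any of 17 alternatives, the lowest adjusted p of a member named in full being 0.227. The count of members below 0 (30) ran from 20 to 28 with an array left out, was 22 under spike-in scaling and 26 under quantile normalization, and 29 to 31 under the other alternatives. Spike-in scaling raised all KO differences by 0.088 on the log2 scale. The homeostatic median of −0.22 was −0.14 under spike-in scaling and −0.11 under normexp; the cause was not tested. With an array left out it ran from −0.26 to −0.08, the complement median from −0.38 to −0.07, the phagocytic from −0.30 to 0.10 and the general myeloid from −0.33 to −0.04; the value nearest 0 or above it came without KO 1 in each. Of 240 values of 16 members named in full, 231 kept their sign. These values of single members, and their lowest adjusted p, came from 15 of the 17 alternatives. Under quantile normalization and spike-in scaling Itgam was 0.03 and Siglech 0.05; with an array left out Itgam ran from −0.12 to 0.00, Siglech from −0.14 to 0.07, C1qb from −0.50 to 0.11 and C1qc from −0.38 to 0.16.

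Over all probes, 0 passed the adjusted threshold, against 5265 at an unadjusted p under 0.05. The adjusted count was 1 under quantile normalization, the median of bright probes, spike-in scaling, and without the spots on patches, 2 under normexp and 4 under an intensity trend; with an array left out it ran from 0 to 98, the latter without control 2, and the cause was not tested. The single array left in a group then takes its spread from the other group. The replicate numbers are not stated to pair samples. Deviations of arrays with the same number correlated at 0.143 across probes, and with the number as a replicate block the member median was −0.16, 30 members were below 0 and 0 passed. Taking the dimmest probe of each gene, an alternative chosen after seeing the data, gave a member median of −0.18. Dim probes such as those of Spi1 and Ngp, and the second Itgam, Siglech, Mpeg1 and Ptprc probes, lie near background, which limits their reading.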
